A study of Coturnix japonica with 29 samples.

Results

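Red cell RNA of adult female Japanese quail (Coturnix japonica) was compared between LPS-injected and saline-injected birds that had all met a saline-injected male. The 19 libraries compared, of 29 in the series, were those with the treatment labels F_LPS (10 libraries) and M_SAL (9 libraries). F_LPS females had received lipopolysaccharide (LPS) and M_SAL females saline, every female spent 3 h with a male before a brachial vein was bled, and the red portion of the spun blood was used for RNA. The female's own injection is thus the labelled difference between the groups. Neither the LPS dose nor the birds' ages were given in the sources used here. The other 10 libraries (M_LPS, saline females that met LPS-injected males) took part in the fit that estimated the spread and are given beside single genes as a second saline-injected group. Each library carries a title of its own, but the titles of F_LPS replicates 3 and 5 share a number, as do those of F_LPS replicate 1 and M_LPS replicate 2, and the labels do not say whether these are separate birds. The labels give no sequencing or bleeding batch, whose part in the results was not tested.

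LPS coats the surface of Gram-negative bacteria. Vertebrate cells recognise it through Toll-like receptor 4, which signals through NF-kB and interferon regulatory factors to genes of inflammation and antimicrobial defence. Red cells of birds keep their nucleus and transcribe genes while in circulation, and the red portion of spun blood can also hold white cells and thrombocytes, the nucleated clotting cells of birds. The deposited table names genes by Ensembl quail identifier only, and 0 of its 21561 identifiers were matched to a symbol. The identity of the cells could therefore not be checked against red cell, thrombocyte or white cell markers, and the part of such cells in the results was not tested. In bulk RNA, fewer cells of a type and less RNA per cell cannot be told apart.

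Totals ran from 9164081 to 14366101 reads over the 19 libraries, and 9918 genes passed the filter on low counts and were tested. Levels are given in CPM (a gene's reads per 1000000 reads of its library, after scaling between libraries), which do not correct for gene length. M_SAL replicates 1 and 3 stood apart from their group. On the first principal component of log2 CPM, which held 23.2% of the variance of the 19 libraries, they scored 38.8 and 43.2, where the rest of M_SAL scored -51.6 to -23.9. F_LPS libraries ran from -19.2 to 68.1, so both M_SAL libraries fell inside the F_LPS range. On the second component, with 9.90% of the variance, they scored -27.2 and -38.0, near M_SAL replicate 6 at -38.0 and F_LPS replicate 8 at -33.0. The other 9 F_LPS libraries scored -5.4 or more. Results that rest on these libraries are given with and without them.

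**Figure D1:**
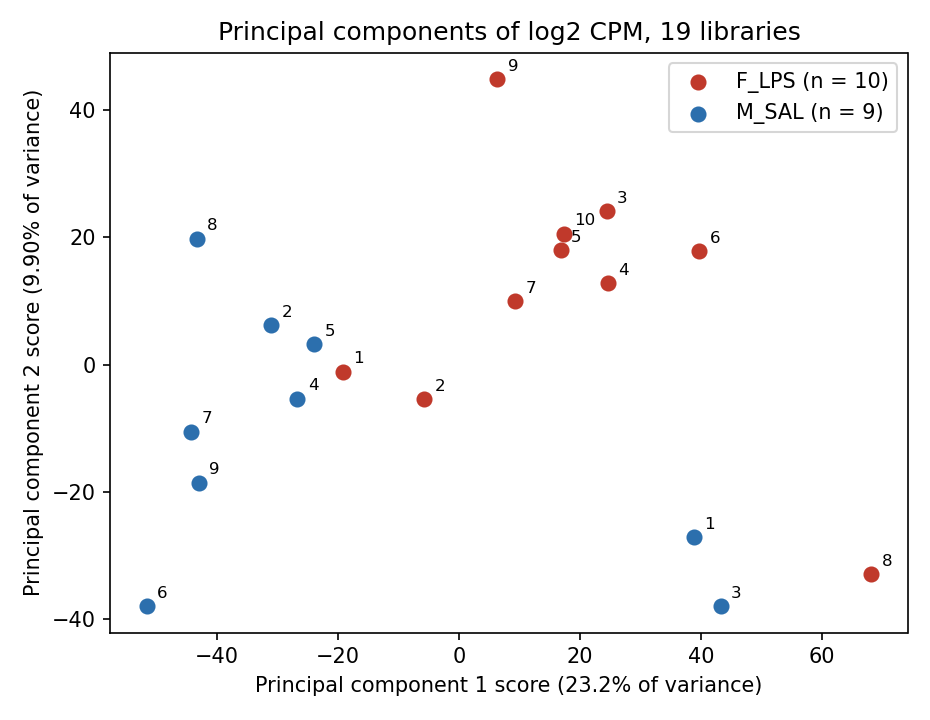
Scores of the 19 libraries on the first and second principal component of log2 CPM over the tested genes. Points are libraries, coloured by group and numbered by replicate. M_SAL replicates 1 and 3 lie at 38.8 and 43.2 on the first component, among the F_LPS libraries, and the other M_SAL libraries lie at -23.9 or below.

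On the first component, whose sign is arbitrary, F_LPS had a mean score of 18.2 ± 24.1 (SD, n = 10) against -20.2 ± 35.9 (SD, n = 9) in M_SAL. The difference of 38.4 did not pass adjustment over 6 library measures (two-sided exact permutation test, p = 0.0152, adjusted p = 0.0816). With the components computed again without M_SAL replicates 1 and 3, the difference was 59.0. These libraries were picked for their place among F_LPS. Larger differences, and more genes called or separated, without them are fixed in part by that choice. Here and below they are given as descriptions. On the second component the difference was 22.9 (exact permutation test, adjusted p = 0.0816), or 3.60 once these libraries were left out. It was 1.56, 6.68 and 5.18 without M_SAL replicate 1, 3 or 6 alone, and 13.3 to 24.3 in the other single omissions. The third component held 9.80% of the variance, close to the second, so a second component computed again may be a different axis.

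Injection of the female was followed by higher levels of 169 genes and lower levels of 60 genes (edgeR quasi-likelihood test, adjusted p below 0.05), which are 1.70% and 0.605% of the 9918 genes tested. Over all tested genes the median log2 fold change was -0.02, and 46.3% were above 0. Before adjustment 1161 genes (11.7% of those tested) had p below 0.05, of which 620 were higher and 541 lower. The rises spanned log2 fold changes from 0.30 to 5.52. The middle 50% of them lay between 0.69 and 1.89, and 38 genes rose over 4-fold. The falls spanned -0.30 to -6.49, and 26 genes fell over 4-fold. A fit to these 19 libraries only, without M_LPS, called 87 genes higher and 14 lower (0.927% and 0.149% of 9382), of which 86 and 14 were among the 169 and 60. The percent of tested reads in the 169 genes had an SD of 0.0714 in M_LPS, 1.74 in F_LPS and 0.813 in M_SAL. For the 60 genes these SDs were 0.0470, 0.0257 and 0.0408. The part of the M_LPS spread in the calls was not tested.

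**Figure D2:**
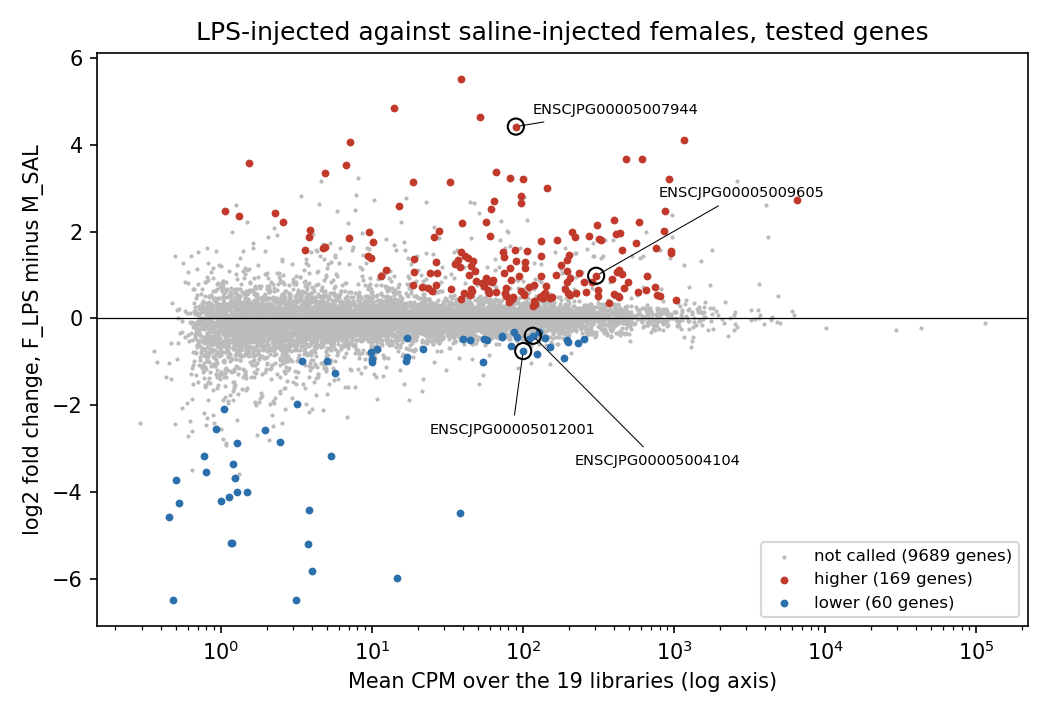
Fold change of each tested gene (vertical axis, log2, F_LPS minus M_SAL) against its mean level over the 19 libraries (horizontal axis, CPM, log axis). Red points are the 169 higher and blue points the 60 lower genes at adjusted p below 0.05, grey points the other tested genes, and circles the 4 genes named in the text. Higher genes sit mostly at 10 CPM and over, and the largest falls sit mostly below 10 CPM. The mean level holds the change itself, so a rise moves a point to the right and a fall to the left.

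The higher gene with the smallest p was ENSCJPG00005007944, whose identity the files do not give. Its level in the 10 F_LPS libraries ran from 37.9 CPM (replicate 10) through a median of 138 to 385 CPM (replicate 8). In the 9 M_SAL libraries it ran from 2.77 CPM through a median of 4.73 to 24.6 CPM. The groups did not overlap, and the M_SAL libraries nearest to F_LPS were replicate 1 at 24.6 CPM and replicate 3 at 13.5 CPM. The means were 163 ± 108 CPM (SD, n = 10) and 7.62 ± 7.14 CPM (SD, n = 9), a 21.5-fold rise (log2 fold change 4.43, SE 0.47, edgeR adjusted p = 2.9e-06). Without M_SAL replicates 1 and 3 the log2 fold change was 5.23. The 10 M_LPS libraries, also from saline-injected females, held 1.36 to 7.67 CPM. Read numbers behind these levels were 30 to 3592 a library in F_LPS and M_SAL, and 13 to 98 in M_LPS.

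ENSCJPG00005009605 was the next, a gene already well expressed in saline-injected birds. It held 172 to 248 CPM in M_SAL (median 206) and 232 to 574 CPM in F_LPS (median 395). Replicate 1 was the only F_LPS library that did not exceed the highest M_SAL library, which was replicate 1 of that group, so 9 of 10 stood above the M_SAL range. The means were 397 ± 99.7 CPM (SD, n = 10) and 201 ± 25.8 CPM (SD, n = 9), a 1.98-fold rise (log2 fold change 0.98, SE 0.12, edgeR adjusted p = 3.6e-05). M_LPS libraries lay between 151 and 233 CPM. The groups thus touched in 1 library, and the SD in CPM between injected birds was several times that between saline birds. An SD in CPM grows with the level, and the mean was 1.98-fold higher in F_LPS, so part of this goes with the level itself.

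Of the lower genes, ENSCJPG00005012001 had the smallest p. It held 98.5 to 147 CPM in M_SAL (median 129) and 50.03 to 96.6 CPM in F_LPS (median 76.8). All 10 F_LPS libraries lay below the lowest M_SAL library, replicate 3, which stood next to F_LPS replicate 1 at 96.6 CPM. The means were 75.6 ± 15.4 CPM (SD, n = 10) and 127 ± 16.8 CPM (SD, n = 9), a 1.69-fold fall (log2 fold change -0.75, SE 0.12, edgeR adjusted p = 6.5e-04). M_LPS libraries held 93.8 to 178 CPM.

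Among lower genes averaging 5 CPM or more in M_SAL, ENSCJPG00005004104 had the next smallest p, with a smaller but even fall. Its level was 101 to 156 CPM in M_SAL (median 132) and 83.3 to 117 CPM in F_LPS (median 99.6). Only 5 of 10 F_LPS libraries lay below the whole M_SAL range, because M_SAL replicate 6 held 101 CPM and the next M_SAL library 126 CPM. The fall was 1.32-fold (100.6 ± 10.9 CPM, n = 10, against 133 ± 14.8 CPM, n = 9, SDs; log2 fold change -0.40, SE 0.08, edgeR adjusted p = 0.0022). M_LPS libraries held 121 to 158 CPM. These 4 genes passed the test in each of the 19 fits that left out 1 library.

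**Figure D3:**
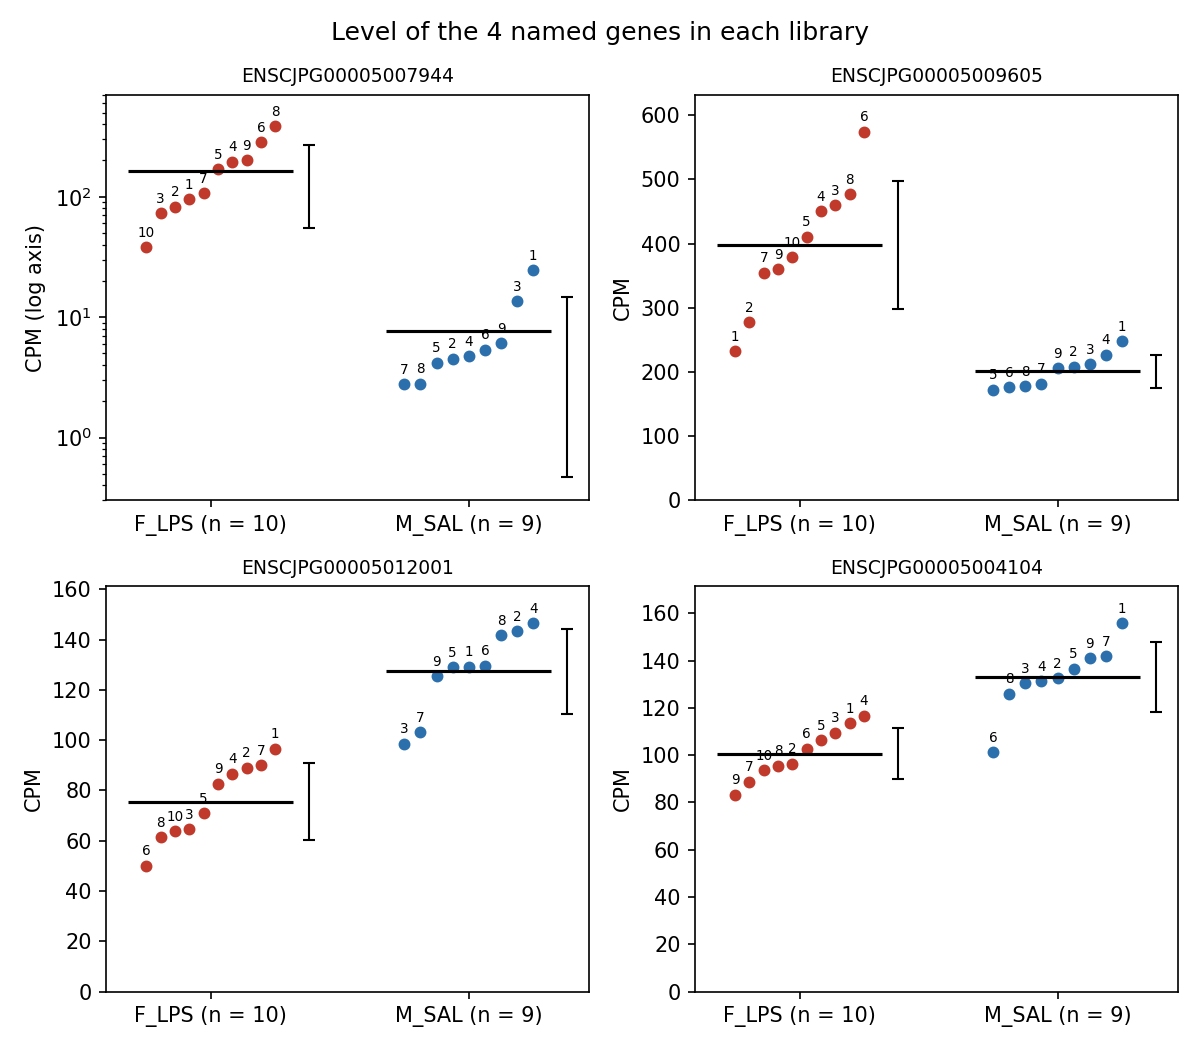
Level in CPM of the 4 named genes in the 10 F_LPS and 9 M_SAL libraries, on a log axis in the first panel and linear axes from 0 in the others. Points are libraries numbered by replicate, horizontal lines are group means, and error bars are 1 SD. The groups do not overlap for ENSCJPG00005007944 and ENSCJPG00005012001. F_LPS replicate 1 overlaps M_SAL for ENSCJPG00005009605, and M_SAL replicate 6 overlaps F_LPS for ENSCJPG00005004104.

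Calls were unevenly spread over the range of levels. Genes were classed by mean CPM over the 19 libraries of both groups, so a rise moves a gene up the classes and a fall moves it down. The shares by class are fixed in part by this. Of the 1816 genes with a mean of 100 CPM and over, 79 were higher (4.35%) and 12 lower (0.661%). Between 10 and 100 CPM, 73 of 4262 genes were higher (1.71%) and 17 lower (0.399%). Between 1 and 10 CPM, 17 of 3389 were higher (0.502%) and 23 lower (0.679%). Of the 451 tested genes under 1 CPM, 0 were higher and 8 lower. The filter on low counts used all 29 libraries, so a gene nearly absent from F_LPS entered only through M_SAL and M_LPS. The split in the lowest class is fixed in part by this filter. Among the higher genes the median log2 fold change was 0.98 at 100 CPM and over, 1.09 between 10 and 100 CPM and 2.04 between 1 and 10 CPM. Precision differed over the same range: around a single gene's log2 fold change, the 95% interval had a median margin of 0.26 at 100 CPM and over, 0.72 between 1 and 10 CPM and 1.0 under 1 CPM. These margins hold both counting error and the spread between libraries. Without M_SAL replicates 1 and 3, higher genes numbered 149 at 100 CPM and over and 154 between 10 and 100 CPM. There were 55 between 1 and 10 CPM and 1 under 1 CPM. These counts cover only genes also tested with all libraries, not every gene called in that fit.

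The 169 higher genes together held a mean of 55879 CPM in F_LPS and 20012 CPM in M_SAL, a gain of 35868 CPM, and the sum of the 60 lower genes fell by 1242 CPM. Of the gain, 10 genes made up 53.5% and a single gene 25.8%. That gene, singled out after its values were seen, held 2897 to 21558 CPM in F_LPS. M_SAL replicates 1 and 3 held 5504 and 6866 CPM of it, and the other 7 M_SAL libraries 106 to 891 CPM. The means were 10897 ± 5617 CPM (SD, n = 10) and 1651 ± 2602 CPM (SD, n = 9), with 8 of 10 F_LPS libraries above every M_SAL library (log2 fold change 2.72, SE 0.69, edgeR adjusted p = 0.0267). The log2 fold change was 4.94 without M_SAL replicates 1 and 3. With limma voom, fitted with a quality weight for each library, the log2 fold change was 4.33 (limma voom adjusted p = 1.1e-06). The call was lost in the fit without M_LPS (edgeR adjusted p = 0.113) and in the test against 1.5-fold (edgeR adjusted p = 0.12). It was also lost in 5 of the 19 fits without 1 library, those without M_SAL replicate 2, 4, 6 or 9 or F_LPS replicate 6 (edgeR adjusted p = 0.0547, 0.0569, 0.0577, 0.0502 and 0.0558).

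The injected birds differed widely among themselves in the higher genes. These genes were called on the same libraries, so the following counts describe them and test nothing. F_LPS replicates 6, 8 and 4 exceeded the highest M_SAL library for 164, 157 and 156 of the 169 genes. F_LPS replicates 1 and 2 did so for 37 and 35. The other 5 F_LPS libraries lay between 98 and 140. The highest F_LPS library was replicate 6 or 8 for 151 of the 169 genes (89.3%), against 28.7% of all tested genes, and the lowest was replicate 1 or 2 for 143 (84.6%), against 16.7%. The M_LPS libraries exceeded the M_SAL range for 2 to 13 of the 169.

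The lower genes showed a narrower range of counts among the injected birds. Each F_LPS library lay below the lowest M_SAL library for 25 to 46 of the 60 genes. Replicate 10 had the highest count. F_LPS replicates 2 and 6, which had the fewest and the most higher genes above the M_SAL range, had 25 and 40. The 25 of replicate 2 was also the lowest count here, and replicate 1 had 34. The lower genes took 0.163% to 0.258% of the tested reads of each F_LPS library and 0.308% to 0.435% of each M_SAL library, so the groups did not overlap in this sum, although its genes were chosen on these libraries. The higher genes took 2.70% to 8.26% in F_LPS and 1.42% to 3.70% in M_SAL, and these ranges overlapped through M_SAL replicates 1 and 3.

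**Figure D4:**
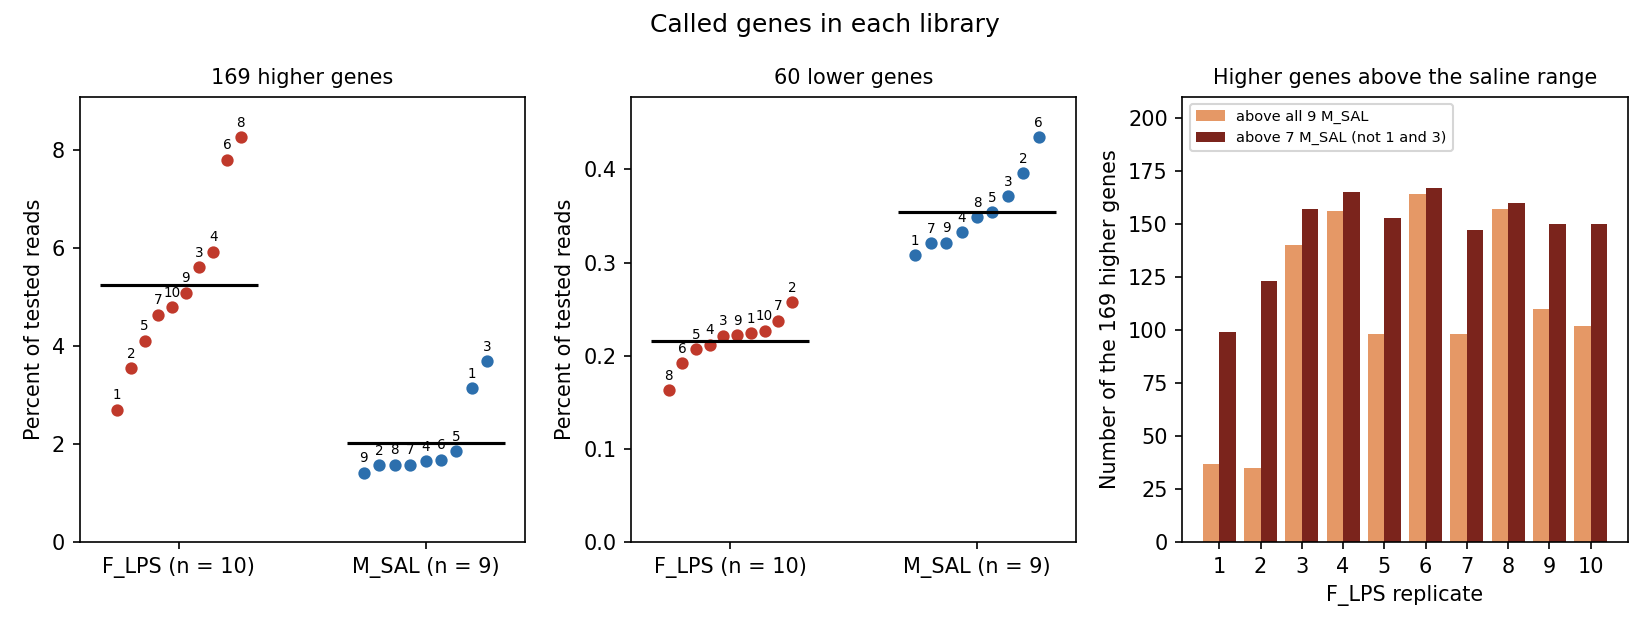
Called genes in each library. The left and middle panels give the percent of tested reads in the 169 higher and the 60 lower genes, with libraries as numbered points and lines at group means. The right panel gives, for each F_LPS library, how many of the 169 higher genes lie above all 9 M_SAL libraries or above the 7 other than replicates 1 and 3. F_LPS replicates 1 and 2 reach 37 and 35 genes against all 9 and 99 and 123 against the 7.

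How far the groups separated depended on M_SAL replicates 1 and 3. All 10 F_LPS libraries lay above all 9 M_SAL libraries for 10 tested genes (0.101% of those tested) and below them for 5 (0.0504%). Against the 7 other M_SAL libraries the counts were 134 (1.35%) and 8 (0.0807%). Replicates 1 and 3 were picked for their place among F_LPS, and fewer libraries span a narrower range. The rise in these counts is fixed in part by that choice. Among the 169 higher genes themselves, separation was complete for 10 against the 9 M_SAL libraries and for 72 against the 7. M_SAL replicates 1 and 3 reached at least the lowest F_LPS library for 134 and 121 of the 169 genes, where the other M_SAL libraries did so for 29 to 52. They reached the F_LPS median for 22 and 26 of the genes, and the other M_SAL libraries for 0 or 1. Their levels of most higher genes were thus within the F_LPS range and below its median. The 169 genes were called with these libraries counted in M_SAL, so their place below the F_LPS median is fixed in part by the calling. Among the 60 lower genes, separation was complete for 5 against the 9 M_SAL libraries and for 7 against the 7.

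Spread between birds was also wider for the higher genes. Their SD of log2 CPM had a median of 0.66 in F_LPS, 0.50 in M_SAL and 0.30 in M_SAL without replicates 1 and 3. It was wider in F_LPS than in M_SAL for 107 of 169 genes (63.3%), against 45.7% of all tested genes. Without M_SAL replicates 1 and 3 these shares were 91.7% (155 of 169) and 56.5%. Leaving out libraries that stood apart narrows the M_SAL spread in part by that choice, so the shares without them test nothing. The lower genes had median SDs of 0.51 in F_LPS and 0.50 in M_SAL. Over all tested genes at once, the distance of a library from the mean of its group was 0.716 ± 0.115 log2 units (SD, n = 10) in F_LPS and 0.771 ± 0.121 (SD, n = 9) in M_SAL, a difference of -0.0553 that was within the spread between libraries (exact permutation test, adjusted p = 0.32).

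Split at a fold change of 2, the 60 lower genes had larger falls at a lower median level, though the levels of both sets overlapped. In 31 genes the fall was within 2-fold. Their median log2 fold change was -0.55, their median M_SAL level 84.2 CPM (4.62 to 297 CPM) and the median margin of their 95% interval 0.27. In none of the 31 did a single M_SAL library hold over 50% of the group's summed CPM. The other 29 genes fell over 2-fold. Their median log2 fold change was -3.99, their median M_SAL level 2.43 CPM (0.916 to 76.99 CPM) and the median margin of their 95% interval 1.73. Their median F_LPS level was 0.181 CPM, and genes at such a level pass the filter on low counts only through M_SAL and M_LPS. A low level joined to a large fall is thus fixed in part by the filter and by calling on these libraries. In 15 of these 29 a single M_SAL library held over 50% of the group's CPM, and that library was M_SAL replicate 6 in 14 of the 15. Among all 9918 tested genes this was so for 188, with M_SAL replicate 6 as that library in 99 of them. M_SAL replicate 6 was the highest M_SAL library for 24 of the 29 genes (82.8%), against 11.7% of all tested genes and 2 of the 31 smaller falls. Without it 39 genes were lower (0.392% of those tested) and 134 higher (1.35%), with 15 of the 29 and 23 of the 31 among the 39, and the median log2 fold change of the 29 was -3.00. It was -2.74 with 1 surrogate variable, a fit that tested 9918 genes. The fit without M_LPS tested 9382 genes, and over those of the 29 that it tested the median was -2.73. That median may thus be over a different set of genes.

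One of the 60 lower genes had no read in any F_LPS library and at least 1 read in all 9 M_SAL libraries, where its mean was 1.01 CPM. This gene could pass the filter on low counts only through M_SAL and M_LPS. With 3 reads over the group as the floor, which covers counting error only, it was at least 37.5-fold lower in F_LPS. With this gene at that bound the median log2 fold change of the 60 genes was still -0.99. The 169 higher genes included none without reads in M_SAL, and their lowest M_SAL mean was 0.214 CPM.

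Fewer genes were detected in F_LPS on average, a difference that did not pass the test. With every library thinned to 8898747 reads, 12153 ± 288 genes (SD, n = 10) had a read in F_LPS and 12479 ± 424 (SD, n = 9) in M_SAL, a difference of -326 (exact permutation test, adjusted p = 0.117). M_SAL replicate 6 had the most, at 13400. Without M_SAL replicates 1 and 3 the difference was -451. The 10 most abundant genes of each library took 22.4% ± 2.59 of the reads (SD, n = 10) in F_LPS and 24.3% ± 3.54 (SD, n = 9) in M_SAL (exact permutation test, adjusted p = 0.273). Totals did not differ beyond their spread either (exact permutation test, adjusted p = 0.32).

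Leaving out M_SAL replicates 1 and 3 raised the calls to 361 higher and 94 lower genes (3.56% and 0.927% of the 10135 genes then tested). Of the 169 and 60 genes, 162 and 47 were among these. The median log2 fold change of the 169 genes went from 1.13 to 1.33, and that of the 60 stayed at -0.99. With M_SAL replicate 1 alone left out, 2.33% of tested genes were higher and 0.658% lower, and with replicate 3 alone left out 2.23% and 0.700%. Without F_LPS replicate 6, which held the highest levels of many higher genes, 1.29% were higher and 0.415% lower. With DESeq2, 236 genes passed as higher and 114 as lower (2.38% and 1.15%). With limma voom, which here also weighted each library by its quality, the numbers were 281 and 62 (2.83% and 0.625%). All 169 higher genes and 59 of the 60 lower genes were called by DESeq2, and 161 and 40 by limma voom. The 40 held 29 of the 31 falls within 2-fold and 11 of the 29 larger ones. Of the 60 lower genes, 27 passed in all 19 fits without 1 library, and of the 169 higher genes, 116 did. Over 9 other fits that kept all 19 libraries and tested against no change, 8 of the 60 (1 of the 29 larger falls) and 75 of the 169 passed every time. A gene that a fit's own filter removed counted there as not passing. Among the 9 was a filter of 5 CPM in 9 libraries, above the median M_SAL level of the larger falls. Of the 29, 5 were called with that filter, and 5 in the fit without M_LPS. Tested against a fold change of 1.5 in place of no change, 32 genes were higher and 14 lower (0.323% and 0.141%), and the 14 all came from the falls over 2-fold.

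**Figure D5:**
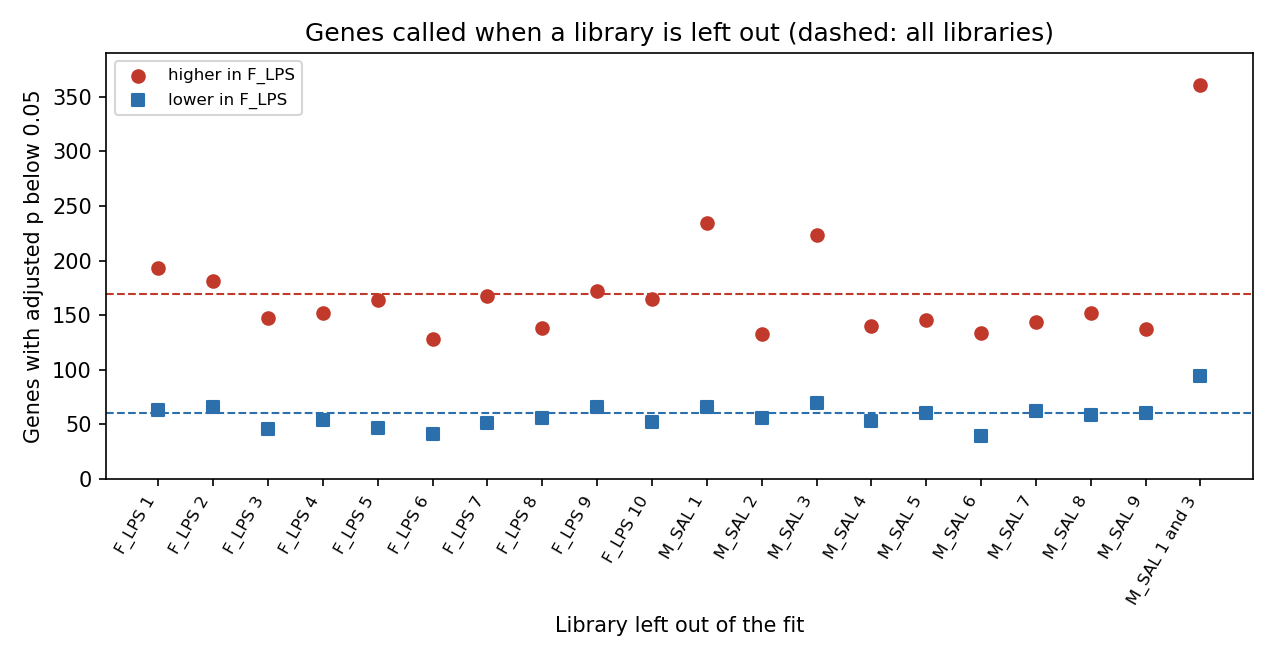
Number of genes with adjusted p below 0.05 (edgeR) that were higher (red circles) or lower (blue squares) in F_LPS when 1 library, or M_SAL replicates 1 and 3 together, was left out. Dashed lines mark the 169 and 60 genes with all libraries. Higher genes ran from 128 without F_LPS replicate 6 to 234 without M_SAL replicate 1, and lower genes from 39 without M_SAL replicate 6 to 70 without M_SAL replicate 3.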

How the data were processed

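The authors deposited 1 table of raw read counts per Ensembl gene identifier, with 1 column a library. CASAVA 1.8.2, HISAT2 and DESeq2 are listed, with no role stated, per the submitters' processing notes. What counted the reads, on which build and with what use of strand, was not given in the sources used here, so overlapping, antisense and near-identical genes could not be told apart. Columns were tied to samples by title and to groups by treatment label, and replicate numbers follow accession order. No library repeated another: chi-square divided by its degrees of freedom was at least 27.8 in all 171 pairs. If blood samples were not independent, p-values would measure only the spread between these samples.

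Genes kept by filterByExpr (9918 of 21561, with 99.9% of reads) were scaled by TMM, and edgeR 4.0.16 (R 4.3.3) gave the quasi-likelihood test (robust, 3 groups in 1 fit, Benjamini-Hochberg adjustment). Log2 CPM used a prior count of 2. Single values per library were compared by two-sided exact permutation over 92378 regroupings. Alternatives used DESeq2 1.42.0, limma 3.58.1 (voom with quality weights, so that libraries could count unequally) and sva 3.50.0. The 4 named genes are the first 2 higher and first 2 lower by p among genes averaging 5 CPM or more in whichever group was higher. The groups, lists and alternatives were chosen with earlier results of these data known. Without symbols, the planned gene lists and cell markers were not tested.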

Additional observations from a re-analysis of the deposited data

Results flagged for a closer look

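Of 26 sets of library values examined, each 1 measure in 1 group, 1 held a library far from the rest of its group, where chance alone gives about 1.3. M_SAL replicate 1 held 24.6 CPM of ENSCJPG00005007944, with the next M_SAL library at 13.5 CPM, and this gap was 0.508 of the whole M_SAL range.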

How the results depend on the processing

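With each library left out in turn, 128 to 234 genes were higher and 39 to 70 lower. The counts of 169 higher and 60 lower genes stayed within 1.5 times under RLE scaling, upper-quartile scaling, TMM computed without the top 10 genes, 1 surrogate variable, a minimum of 5 CPM in 9 libraries, or all genes with a read. The genes called were not all the same. Of the 169 and 60, 125 and 34 were called with 1 surrogate variable and 153 and 35 with the 5 CPM minimum. With all genes that had a read, 157 and 43 were called, and the scalings kept at least 162 and 58. The counts moved further with DESeq2 (114 lower), limma voom (281 higher), a fit without M_LPS (87 and 14) and a test against 1.5-fold (32 and 14). They also did so without M_SAL replicates 1 and 3 (361 and 94) and, for the lower genes, without M_SAL replicate 6 (39). The cause was not tested, except that the 1.5-fold test asks for more by construction. None of the 169 and 60 genes was called in the opposite direction in these fits. The CPM classes were also replaced by 4 classes of equal gene number, by the same mean over both groups. From the lowest level up, 8, 18, 44 and 99 genes were higher and 25, 11, 7 and 17 lower. Without M_SAL replicates 1 and 3 the 4 CPM classes, from under 1 CPM up, held 1, 55, 154 and 149 higher genes. They held 13, 34, 23 and 11 lower genes. The classes cover only genes also tested with all libraries. Some of the 361 higher and 94 lower genes called in that fit fell outside them. The difference on the first principal component crossed the threshold without M_SAL replicates 1 and 3 (59.0), replicate 1 (47.6) or replicate 3 (48.4), with a range of 33.5 to 48.4 over single omissions, and the difference in genes detected did so without replicates 1 and 3 (-451; -387 to -211 over single omissions). Because these libraries were chosen for their place on that component, the crossings test nothing. Of the 4 named genes, only ENSCJPG00005007944 passed the 1.5-fold test, and all 4 passed every other setting. No paired analysis was possible because the replicate numbers follow accession order and the labels pair no samples. Intervals were widest in genes under 10 CPM, and the parts of depth and of spread between libraries were not separated. Without F_LPS replicate 3 or 5, whose titles share a number, 147 and 164 genes were higher and 46 and 47 lower.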

Other observations

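Over the whole table of 21561 genes, before any filter, 13 genes had no read in the 9 M_SAL libraries and a read in at least 5 of the 10 F_LPS libraries. In the opposite direction, 31 genes had no read in the 10 F_LPS libraries and a read in at least 5 of the 9 M_SAL libraries. With at least 8 libraries asked for, the counts were 0 and 3. The M_LPS libraries lay below the M_SAL range for 1 to 8 of the 60 lower genes.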
